A study of Drosophila melanogaster with 6 samples.

Results

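The muscle structural genes examined here are genes of the fly sarcomere, the contractile unit of striated muscle, with 2 calponin-like genes and 2 metabolic enzymes that muscle uses at high levels. They were listed by name, with no value in the rule though with earlier results of these data known, and matched to the gene symbols of the expression table. Of the 33 names, 32 were found as written among the 14239 genes of the table, and Zasp67 was found only under an older symbol, CG14168, and is counted apart. The list was meant to set products of mature muscle apart from the genes that mark its precursor cells, the myoblasts. Some members, such as Tm1, Actn and Chd64, also act outside muscle, so the list is not a measure of mature muscle alone.

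In a sarcomere, thin filaments of actin slide along thick filaments of myosin. Tropomyosin and the troponin complex lie along the thin filament and let calcium switch contraction on. The Z-disc anchors thin filaments, and giant proteins of the titin and obscurin families link the filaments to each other. The wing imaginal disc is a larval epithelium that forms the wing and the body wall around it. Beneath its notum region lie myoblasts, which express identity genes such as twi and Mef2, build no sarcomeres in the larva, and later fuse to form the flight muscles.

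Cells were sorted from discs in 2 groups of 3 replicates. The ablated group had the genotype nub-GFP/+; rn-Gal4, GAL80ts, UAS-rpr/+, and the control group nub-GFP/+; rn-Gal4, GAL80ts/+, so that both carried the nub-GFP marker, the driver and its temperature-sensitive repressor, and the ablated group alone carried the cell death gene rpr. Larvae of both groups grew at 18 °C and spent 24 h at 30 °C, which in the ablated group killed most cells of the rn domain in the wing pouch. GFP-labeled cells, which are regeneration blastema cells in the ablated group and pouch cells in the control group, were collected after 24 h of recovery. Each replicate pooled many discs, over several days of dissection in the ablated group. By the paper's account, a control replicate held far fewer discs than an ablated one but yielded more GFP-labeled cells. The rn driver covers most of the pouch and not the whole disc, and the sort selected cells by nub-GFP alone. The table gives 1 FPKM (fragments per kilobase of transcript, scaled to library size) per gene and group, pooled by the authors over the 3 replicates. No spread between replicates can therefore be given for any value below, no test across replicates was made, and the reads behind a single value are unknown. A gene was called higher or lower where its mean over both groups reached 1 FPKM and the log2 ratio of the ablated over the control value was 1.3 or more, or -1.3 or less. This is a rule of size and not a test.

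The sorted cells had the marks of wing pouch in both groups. The pouch genes nub, vg and pdm2 had 51.8, 41.8 and 36.1 FPKM in ablated cells, against 89.9, 71.0 and 49.3 FPKM in control cells. Of 6 pouch markers 5 were lower in ablated cells and none was called, and bi was higher, at 34.9 FPKM in ablated cells and 14.5 FPKM in control cells. Over the whole table, the ablated values added up to 889990 FPKM and the control values to 1081834 FPKM, and setting both sums equal raises every log2 ratio by 0.28. The difference between groups also depended on the level of a gene. The median log2 ratio of all genes was 0.88 for those with a mean of 0.1 to 1 FPKM, 0.29 for those from 1 to 10, -0.12 for those from 10 to 100 and -0.38 for those from 100 to 1000.

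The muscle genes fell into 2 classes of level that the groups shared. In each group, 6 genes (Argk, Tm1, Chd64, Actn, Zasp52 and Gpdh) were above 10 FPKM and the other 26 were below 5 FPKM. Of the 32 genes, 10 reached 1 FPKM in ablated cells and 8 did so in control cells. The 6 genes above 10 FPKM made up 98.1% of the summed FPKM of the list in ablated cells and 99.3% in control cells. The remaining 26 genes summed to 21.3 FPKM in ablated cells, against 11.7 FPKM in control cells. The genes for muscle myosin heavy chain, troponin T, troponin I, paramyosin and flightin were under 1 FPKM in both groups, whereas the muscle regulatory light chain gene Mlc2 was above it in both and the muscle actin gene Act87E in ablated cells.

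**Figure D1:**
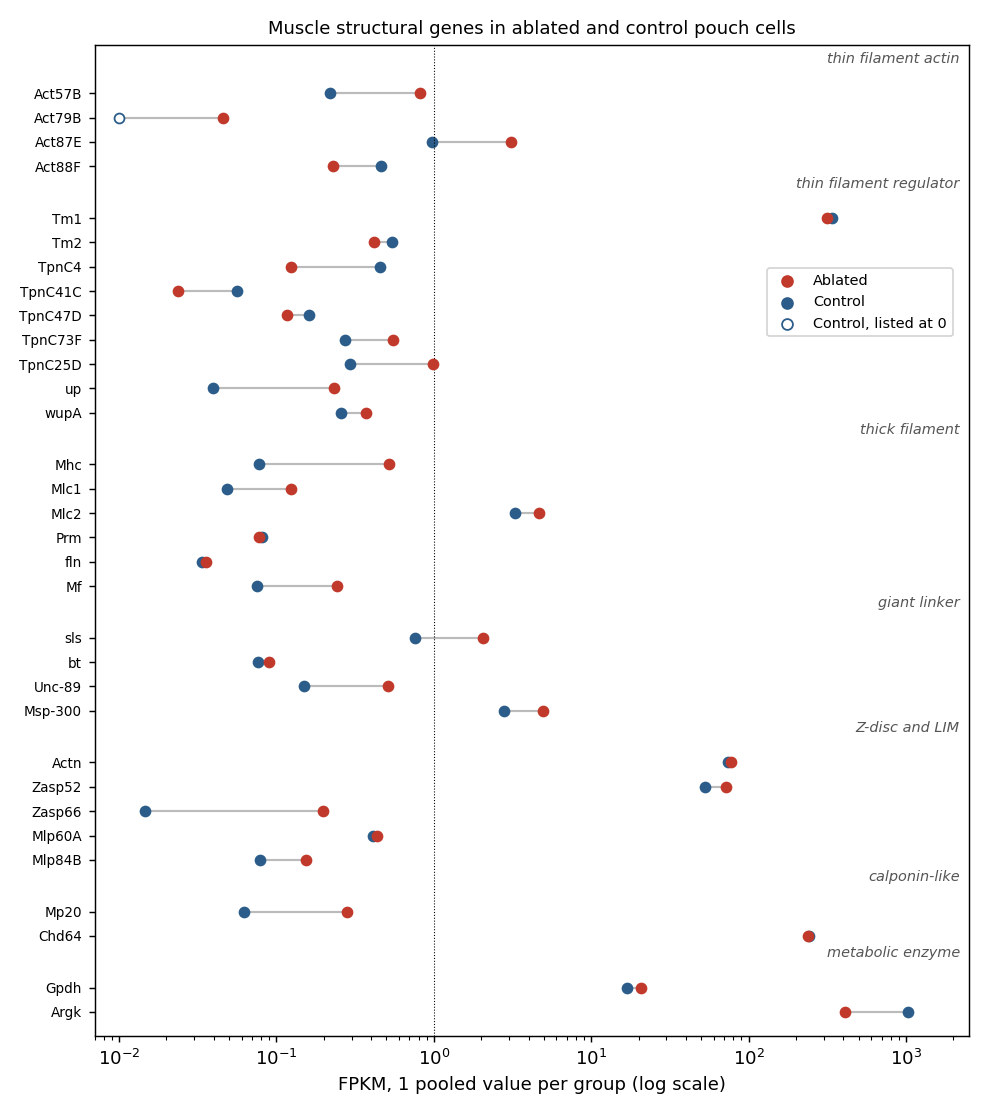
Each row is 1 muscle structural gene, ordered by role, with its pooled FPKM in ablated cells (red) and control cells (blue) on a log axis, and the dotted line marks 1 FPKM. The control value of Act79B, listed at 0, is drawn as an open circle at the left. Only 6 genes lie above 10 FPKM, and Argk shows the widest gap among these, at 408 FPKM in ablated cells and 1036 FPKM in control cells.

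Of the 10 muscle genes whose mean reached 1 FPKM, Act87E and sls were called higher in ablated cells, which is 2 genes or 20% beside 4.49% of all 8437 genes at that level. A single gene, Argk, was called lower, beside 2.13% of all genes. With both groups set to the same FPKM sum, the shares of all genes called were 7.24% higher and 1.65% lower, and after subtraction of the median at each level 3.22% and 2.35%. The median log2 ratio of the 10 genes was 0.37, beside -0.04 for all genes. Act87E and sls were under 1 FPKM in control cells and reached the minimum through their ablated values. With 1 FPKM added to both groups neither was called, with log2 ratios of 1.06 and 0.80, and 2.16% of all genes were called higher. After subtraction of the median of genes at a similar level none of the 3 genes was called.

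Argk encodes arginine kinase, the invertebrate counterpart of creatine kinase, which buffers ATP through phosphoarginine and is abundant in muscle. It had the highest level of all the listed genes in both groups, 408 FPKM in ablated cells and 1036 FPKM in control cells. The ablated value was 39.4% of the control value, a log2 ratio of -1.34, just past the fold rule. By level Argk ranked 198 of all genes in ablated cells and 124 in control cells. Of the 814 genes with a mean from 100 to 1000 FPKM, 19 including Argk had a log2 ratio as low or lower. With both groups set to the same FPKM sum its log2 ratio was -1.06, and after subtraction of the median of genes at a similar level it was -0.97, so that the call rests on the scaling while the direction does not. The gene lies on chromosome 3L from 9041962 to 9059127 (genome release 5) and shares its locus with no other gene. Gpdh, the cytosolic glycerol-3-phosphate dehydrogenase that flight muscle uses to recycle NADH, had 20.6 FPKM in ablated cells and 16.9 FPKM in control cells, a log2 ratio of 0.29. The 2 enzymes thus differed in opposite directions, Argk by more than the fold rule and Gpdh by less.

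The 4 muscle actin genes were low in both groups. Act87E, an actin of larval body wall muscle, had 3.09 FPKM in ablated cells and 0.97 FPKM in control cells, a log2 ratio of 1.67. The gene lies on chromosome 3R from 9251707 to 9253811 (genome release 5). Act57B, the other main larval muscle actin, had 0.82 FPKM in ablated cells and 0.22 FPKM in control cells, with a log2 ratio of 1.89 at a level under the minimum for a call. Act88F, the actin of indirect flight muscle, was lower in ablated cells, at 0.23 FPKM against 0.46 FPKM in control cells. Act79B, an actin of adult leg and other tubular muscles, had 0.046 FPKM in ablated cells and is listed at 0 in control cells. The order of the actins therefore was the same at the top in both groups, with Act87E first, and the larval and flight muscle forms differed in opposite directions. Fly actins are near-identical in sequence, and the cytoplasmic actin gene Act5C had 2893 FPKM in ablated cells and 3147 FPKM in control cells. The level of Act87E was 0.107% of that of Act5C in ablated cells and 0.0308% in control cells, and the part of misassigned actin reads in the low values was not tested, so that these values are uncertain.

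The tropomyosins differed widely in level. Tm1 had 313 FPKM in ablated cells and 338 FPKM in control cells, a log2 ratio of -0.11, whereas Tm2 had 0.42 FPKM in ablated cells and 0.55 FPKM in control cells, a log2 ratio of -0.39. The genes are neighbors on chromosome 3R, Tm1 from 11107254 to 11133702 and Tm2 from 11135915 to 11140920 (genome release 5), with 2212 bp between them. Tm1 was 749-fold higher than Tm2 in ablated cells and 619-fold higher in control cells. Tm1 makes muscle and cytoskeletal tropomyosins from different promoters and exons, with 18 transcripts in the release 6 annotation, and a value per gene does not tell these apart. The small negative log2 ratio of Tm1 turned positive, at 0.17, with equal FPKM sums, so no direction can be given for it.

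Troponin C, the calcium sensor of the thin filament, is encoded by 5 listed genes, and none reached 1 FPKM in either group. TpnC25D had 0.99 FPKM in ablated cells and 0.29 FPKM in control cells, and TpnC73F, a form of larval and adult muscles, had 0.55 FPKM in ablated cells and 0.27 FPKM in control cells. TpnC4, the main form of the flight muscle, was lower in ablated cells, with 0.12 FPKM against 0.46 FPKM in control cells, a log2 ratio of -1.89. Its locus also holds CG30438, at 1.27 FPKM in ablated cells and 1.61 FPKM in control cells. TpnC41C had 0.024 FPKM in ablated cells and 0.056 FPKM in control cells, and TpnC47D had 0.12 FPKM in ablated cells and 0.16 FPKM in control cells. In this family 2 genes were thus higher and 3 lower in ablated cells, and none of them could be called at these levels. Of all genes, 81.9% were higher from 0.1 to 1 FPKM and 75.3% under 0.1 FPKM. TpnC25D shares its locus with tkv, a Dpp receptor gene at 96.0 FPKM in ablated cells and 96.3 FPKM in control cells. The same locus holds Cyp4ac1, Cyp4ac2 and Cyp4ac3, each under 1 FPKM in both groups. Although the libraries were made with a stranded kit, the sources used here do not say if strand entered the counting. For the other troponins, up (troponin T, which binds tropomyosin) had 0.23 FPKM in ablated cells and 0.039 FPKM in control cells, and wupA (troponin I, which binds actin) had 0.37 FPKM in ablated cells and 0.26 FPKM in control cells. Both were higher in ablated cells, up by a log2 ratio of 2.57 and wupA by 0.53.

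Of the 6 thick filament genes, 5 were higher in ablated cells, none was called, and all but Mlc2 were under 1 FPKM, where 79.9% of all genes were higher. Mhc, the single gene for all muscle myosin heavy chains of the fly, had 0.52 FPKM in ablated cells and 0.077 FPKM in control cells, a log2 ratio of 2.75. The gene spans chromosome 2L from 16766737 to 16788766 (genome release 5) and shares its locus with no other gene. Mlc1, the muscle alkali light chain, had 0.12 FPKM in ablated cells and 0.048 FPKM in control cells. Mlc2, the muscle regulatory light chain, was the most abundant of the group, with 4.65 FPKM in ablated cells and 3.27 FPKM in control cells, a log2 ratio of 0.51. Mf, which encodes the thick filament protein myofilin, had 0.24 FPKM in ablated cells and 0.075 FPKM in control cells. Prm (paramyosin, a rod in the filament core) had 0.077 FPKM in ablated cells and 0.081 FPKM in control cells, and fln (flightin, particular to flight muscle thick filaments) had 0.036 FPKM in ablated cells and 0.034 FPKM in control cells. Prm and fln thus had nearly the same value in each group, and Mhc the largest ratio of the group.

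Beside their counterparts in other cells the myosin genes stayed minor. Mhc was 0.344% of zip, the nonmuscle myosin heavy chain, in ablated cells and 0.0522% in control cells. Mlc2 was 2.24% of sqh, the nonmuscle regulatory light chain, in ablated cells and 1.23% in control cells. Mlc1 was 0.0678% of Mlc-c, the cytoplasmic essential light chain, in ablated cells and 0.0204% in control cells. The counterparts themselves were not called, with log2 ratios of 0.03 for zip, -0.35 for sqh and -0.38 for Mlc-c. Of 6 such cytoplasmic genes, which also include Act5C, Act42A and calmodulin (Cam), none was called in either direction, and their median log2 ratio was -0.24.

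**Figure D2:**
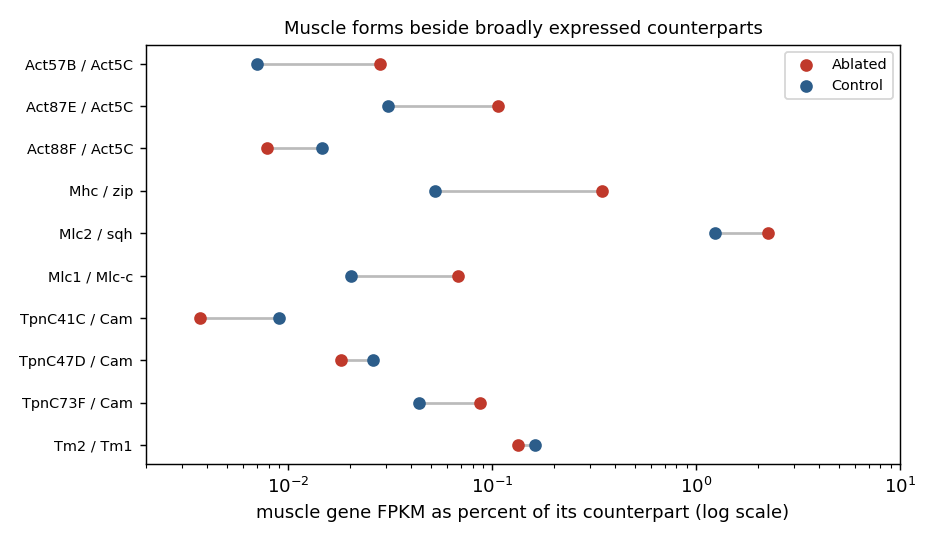
Each row gives the FPKM of a muscle gene as a percentage of that of a related, broadly expressed gene, in ablated cells (red) and control cells (blue), on a log axis. Mlc2 stands highest, at 2.24% of sqh in ablated cells and 1.23% in control cells, and all other muscle genes lie under 1% of their counterpart in both groups. Act79B is left out because its control value is listed at 0.

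The genes classed here as giant linkers (sls, Msp-300, Unc-89 and bt) were all higher in ablated cells, as were most genes of their levels. Of all genes with both values above 0, 71.2% were higher from 1 to 10 FPKM. The share was 81.9% from 0.1 to 1 FPKM and 75.3% under 0.1 FPKM. sls, which encodes Sallimus and kettin, the titin-like proteins between the Z-disc and the thick filament, had 2.06 FPKM in ablated cells and 0.76 FPKM in control cells, a log2 ratio of 1.44. It lies on chromosome 3L from 2040179 to 2115617 (genome release 5), and its locus also holds the noncoding gene CR42860, which had 6.36 FPKM in ablated cells and 4.33 FPKM in control cells. Msp-300, a nesprin that positions muscle nuclei, had 4.93 FPKM in ablated cells and 2.80 FPKM in control cells, a log2 ratio of 0.82. Its locus also holds 4 small RNA genes. Of these, snoRNA:Psi18S-525k had 6.27 FPKM in ablated cells and 1.97 FPKM in control cells, and the others are listed at 0 in both groups. Unc-89, the fly obscurin of the M-line, had 0.51 FPKM in ablated cells and 0.15 FPKM in control cells, a log2 ratio of 1.78. bt, which encodes projectin, had 0.089 FPKM in ablated cells and 0.077 FPKM in control cells. Only sls passed the fold rule at a mean of at least 1 FPKM, and the low values of bt were close to each other.

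Z-disc and LIM genes included 2 above 10 FPKM and 3 under 1 FPKM. Actn, the alpha-actinin that crosslinks thin filaments at the Z-disc and actin bundles elsewhere, had 77.1 FPKM in ablated cells and 73.9 FPKM in control cells, a log2 ratio of 0.06. It shares its locus with the nuclear receptor gene usp, at 19.1 FPKM in ablated cells and 21.1 FPKM in control cells. Zasp52, a PDZ and LIM domain protein of Z-discs and of integrin adhesion sites, had 71.4 FPKM in ablated cells and 52.5 FPKM in control cells, a log2 ratio of 0.44. Its relative Zasp66 had 0.20 FPKM in ablated cells and 0.015 FPKM in control cells, the largest finite log2 ratio of the list at 3.76. Zasp66 shares its locus with the replication gene Cdc6, which had 5.74 FPKM in ablated cells and 4.55 FPKM in control cells. Zasp67, under its older symbol, had 0.015 FPKM in ablated cells and is listed at 0 in control cells. The muscle LIM protein genes Mlp60A and Mlp84B had 0.44 and 0.15 FPKM in ablated cells, against 0.41 and 0.079 FPKM in control cells. Mlp84B shares its locus with Alh, at 37.5 FPKM in ablated cells and 41.2 FPKM in control cells. The same locus holds e(y)2b, at 12.4 FPKM in ablated cells and 7.81 FPKM in control cells. Within the Zasp family, only Zasp52 was at a level well above 1 FPKM.

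The calponin-like genes differed in level by a wide margin. Chd64, which binds actin in many tissues, had 239 FPKM in ablated cells and 241 FPKM in control cells, a log2 ratio of -0.01. With equal FPKM sums this became 0.27, and after subtraction of the median of genes at a similar level 0.38, so that its sign depends on the scaling. Mp20, a muscle protein of the same family, had 0.28 FPKM in ablated cells and 0.062 FPKM in control cells, a log2 ratio of 2.17.

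The 22 members with a mean under 1 FPKM were compared with other genes of that level, since low genes as a whole had positive log2 ratios. Both values were above 0 for 21 of the 22. Of these 21, 15 were higher and 6 lower in ablated cells, 71.4% higher, beside 79.9% of the 3307 genes in the table with the same range of level. A log2 ratio of at least 1.3 was reached by 9 of the 21, or 42.9%, beside 33.3% of all such genes, and a log2 ratio of at most -1.3 by TpnC4 alone, 4.76% beside 4.26%. Their median log2 ratio was 0.97, beside 0.87. As a group the low muscle genes were therefore close to other genes of their level. The authors' program marked 17 of the 32 genes as having too few reads for its own test, which were all under 1 FPKM.

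**Figure D3:**
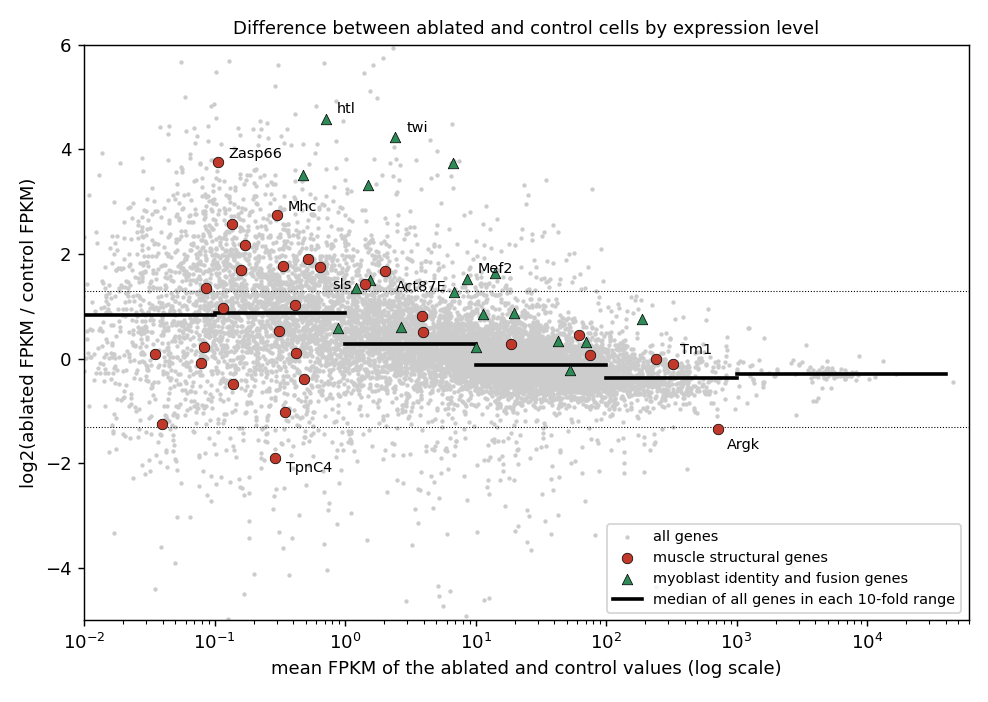
Each point is a gene with both values above 0, plotted by its mean FPKM (log axis) and the log2 ratio of its ablated over its control FPKM, with muscle structural genes in red, myoblast genes as green triangles and all genes in grey. A few genes beyond the ends of the axes are not drawn. Black lines mark the median of all genes in each range of level and dotted lines the fold rule. Muscle genes under 1 FPKM scatter on both sides of the black lines, whose value is 0.88 from 0.1 to 1 FPKM. Of the 10 muscle genes with a mean of at least 1 FPKM, all but Argk lie above the line of their range. So do most myoblast genes, among them twi, at 4.23, and Mef2, at 1.53.

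Genes of the muscle precursors were set beside the muscle structural genes. From a list of 19 genes for myoblast identity and fusion, 16 reached a mean of 1 FPKM, and 7 of these, or 43.8%, were called higher in ablated cells, beside the same 4.49% of all genes. None was called lower. Of the 7 called genes, twi, stumps, Him, kirre and lmd were under 1 FPKM in control cells and reached the minimum through their ablated values, and the list, too, was chosen with earlier results known. The median log2 ratio of the 16 genes was 1.08, against 0.37 for the muscle structural genes, and the difference was not tested. The value of 0.37 covers 10 genes. Of these, the 6 genes above 10 FPKM had a median of 0.026, and the other 4 had a median of 1.13. The 2 lists also differed in level, on which ratios depended. From 1 to 10 FPKM the medians were 1.51 for 8 myoblast genes and 1.13 for 4 muscle genes. From 10 to 100 FPKM they were 0.33 for 7 and 0.29 for 3. From 0.1 to 1 FPKM they were 3.51 for 3 and 1.35 for 16. From 100 to 1000 FPKM, 1 myoblast gene had 0.76 and 3 muscle genes a median of -0.11. Mef2, the transcription factor that activates many sarcomere genes, had 12.7 FPKM in ablated cells and 4.41 FPKM in control cells, a log2 ratio of 1.53. Him, which holds myoblasts undifferentiated by repressing Mef2 activity, had 12.6 FPKM in ablated cells and 0.94 FPKM in control cells, a log2 ratio of 3.75. The FGF signaling adaptor stumps had 2.74 FPKM in ablated cells and 0.27 FPKM in control cells. The fusion receptor kirre of founder cells had 2.28 FPKM in ablated cells and 0.81 FPKM in control cells, and lmd, a regulator of fusion-competent myoblasts, 1.76 FPKM in ablated cells and 0.69 FPKM in control cells. The other 2 called genes were twi, the mesodermal transcription factor, at 4.62 FPKM in ablated cells and 0.25 FPKM in control cells, and m6, at 21.2 FPKM in ablated cells and 6.82 FPKM in control cells. The most abundant genes of the list were not called, such as Ama, which encodes a secreted adhesion protein, at 236 FPKM in ablated cells and 139 FPKM in control cells, and the fusion gene blow, at 77.9 FPKM in ablated cells and 62.1 FPKM in control cells. Most of the called genes are identity genes. Mef2 and Mhc, at 12.7 and 0.52 FPKM in the ablated group, were measured in the pooled sorted cells, and the values do not show if they come from the same cells. In a sorted population, a larger share of cells of a type and more RNA per cell cannot be told apart.

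Further genes of the sarcomere and of muscle excitation were also examined. Of 13 further genes for sarcomere parts and assembly, 11 reached a mean of 1 FPKM, 2 were called higher and none lower, with a median log2 ratio of 0.26. The 2 genes are 18.2%, beside 4.49% of all genes and 20% of the muscle structural genes. The called genes were CAP, an adaptor at integrin adhesion sites, at 2.71 FPKM in ablated cells and 0.58 FPKM in control cells, and Strn-Mlck, a kinase of the titin family, at 2.62 FPKM in ablated cells and 1.004 FPKM in control cells. CAP was thus under 1 FPKM in control cells and reached the minimum through its ablated value. This list, too, was chosen with earlier results known. The pointed-end cap tmod and both capping protein genes were among the most abundant, with tmod at 88.8 FPKM in ablated cells and 93.7 FPKM in control cells. Of 12 genes for excitation, calcium handling and the sarcolemma, 6 reached a mean of 1 FPKM, none was called, and the median log2 ratio was 0.20. The calcium pump gene Ca-P60A, which all cells use, had 69.7 FPKM in ablated cells and 84.7 FPKM in control cells. Dys, the fly dystrophin, had 40.3 FPKM in ablated cells and 32.3 FPKM in control cells, and its membrane partner Dg had 25.2 FPKM in ablated cells and 22.3 FPKM in control cells.

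Of the markers of other cell types (hemocyte, fat body, neuron, tendon and trachea), Lsp1beta, btl and trh passed the fold rule. Of all genes with a mean of at least 1 FPKM, 4.49% were called higher and 2.13% lower. Counts of markers that were higher are to be read beside the share of all genes that were higher in ablated cells. This share was 79.9% under 1 FPKM and 47.1% at a mean of at least 1 FPKM. Of 9 hemocyte markers, 8 had both values above 0 and 7 of these were higher in ablated cells. Of the 6 hemocyte markers under 1 FPKM with both values above 0, 5 had a log2 ratio of at least 1.3. This is 83.3%, beside 33.3% of all such genes, and their median was 2.52, beside 0.87. The sum over the hemocyte list was 24.5 FPKM in ablated cells and 26.6 FPKM in control cells, most of it from crq, a scavenger receptor gene, at 19.99 FPKM in ablated cells and 25.1 FPKM in control cells. All 7 fat body markers were higher in ablated cells, 6 of them under 1 FPKM and none of these 6 at a log2 ratio of 1.3 or more, with sums of 4.28 FPKM in ablated cells and 1.80 FPKM in control cells, and 1 was called, the storage protein gene Lsp1beta at 3.48 FPKM in ablated cells and 1.28 FPKM in control cells. Of 6 neuron markers, 2 reached a mean of 1 FPKM. Of the 5 with both values above 0, 4 were higher, with sums of 7.04 FPKM in ablated cells and 3.81 FPKM in control cells. Of 4 tendon cell markers, all at a mean of at least 1 FPKM, 3 were higher and none was called. The 6 tracheal markers, also all at that mean, included 1 called higher (btl) and 1 called lower (trh). The part of such cells in the values of the muscle genes was not tested.

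**Figure D4:**
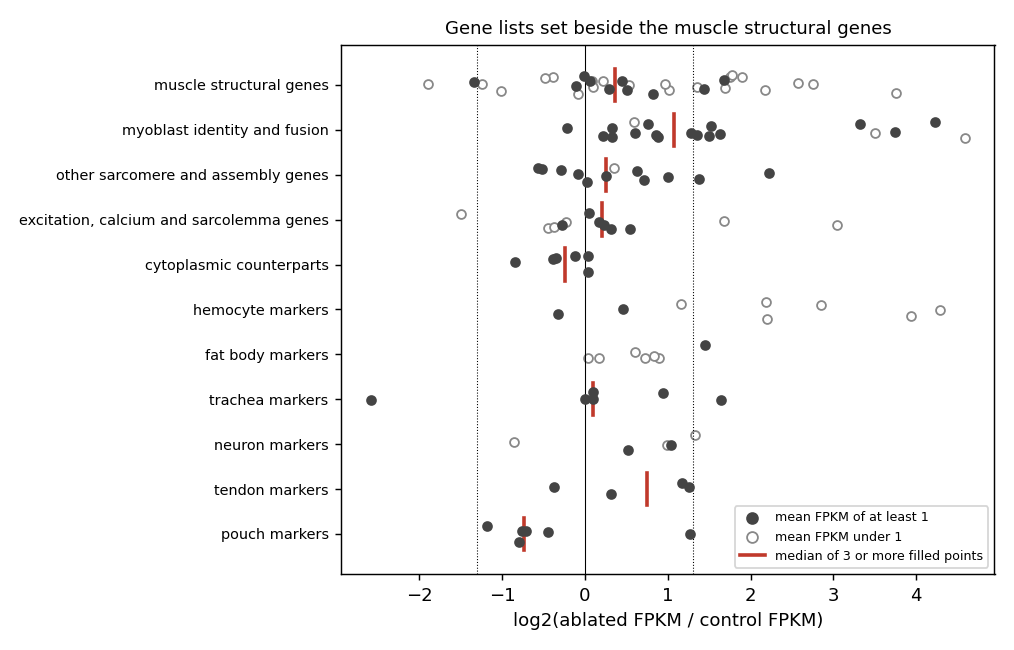
Each point is 1 gene of a list, placed by the log2 ratio of its ablated over its control FPKM, filled where its mean reaches 1 FPKM and open where it is lower, with small vertical offsets for legibility. Red bars mark the median of the filled points in lists with at least 3 of them, which is 0.37 for muscle structural genes and 1.08 for myoblast genes, and dotted lines mark the fold rule. Genes listed at 0 in a group are not drawn.

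The annotated structure of the genes was set beside their level. The 6 genes above 10 FPKM had a median of 8 annotated transcripts in release 6, from 2 for Chd64 to 22 for Zasp52, and the other 26 had a median of 3, from 1 to 21, the highest number being that of Mhc. The longest annotated transcripts were those of sls, Msp-300 and bt, with 56489, 43121 and 27666 bases. FPKM divides by transcript length, so a low FPKM of such a gene stands for more fragments than the same FPKM of a short one such as TpnC47D, whose longest transcript has 791 bases. The members lie on 6 chromosome arms, with 8 each on 2R, 3L and 3R, 4 on 2L, 3 on X and 1 on chromosome 4.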

How the data were processed

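The authors trimmed reads and clipped adaptors, aligned them with TopHat2 (version 0.6 per the labels) to build 5.41 of the fly genome with its gene models, and estimated FPKM with Cufflinks (version 0.0.7 per the labels), correcting for sequence bias and for reads with several positions. Cuffdiff normalized libraries geometrically and pooled the 3 replicates of a group, so the deposited FPKM are 1 value per gene and group. The table's own fold change, test statistic, p-value and q-value columns hold the authors' comparison and were not used. The libraries were stranded (TruSeq kit), and whether strand entered the counting is not stated in the sources used here.

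Log2 ratios are of the ablated over the control FPKM, with no pseudocount. A call needed a mean FPKM of at least 1 and a log2 ratio of at least 1.3 or at most -1.3, the cutoff of the authors. No test was made. Ranges of level were bounded by powers of 10, and the subtraction of a median by level used steps of 0.5 in log2 mean FPKM. Coordinates are counted from 1. Of 97 entries in the other gene lists, 8 were matched through a RefSeq synonym pointing to 1 gene. Named genes are all members, and of the other lists those called, the 3 most abundant at most and the cytoplasmic counterparts of members, and genes that share a locus with a member are named for that alone. The members and lists were chosen with earlier results of these data known. In all, 11 alternatives were planned and 1 was chosen later, with the values known. Versions were Python 3.11.15, numpy 2.4.6, pandas 2.3.3 and matplotlib 3.10.9. The calculation of calls was tested on simulated data.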

Additional observations from a re-analysis of the deposited data

How the results depend on the processing

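The direction of Act87E, sls, Argk, Mlc2, Msp-300, Actn, Zasp52 and Gpdh was kept under the 5 alternatives of scaling and pseudocount, and that of Tm1 and Chd64 was not. Calls depended on the settings. A threshold of 1.5 left 1 gene higher and 0 lower, beside 3.26% and 1.85% of all genes. A pseudocount of 1 FPKM left 0 higher, beside 2.16% of all genes. A mean FPKM of at least 5 also left 0 higher, beside 1.96%. Equal FPKM sums left 0 lower, beside 1.65%. Correction by the median at each level left 0 higher and 0 lower, beside 3.22% and 2.35%. Without genes of shared loci 1 was higher, beside 4.95%, since sls shares its locus. With no minimum, 11 were higher and 2 lower, beside 12.5% and 2.60% of all genes with both values above 0. With a mean of at least 0.1 FPKM, an alternative chosen after the data were seen, 10 were higher and 2 lower, beside 11.0% and 2.60% of all genes.

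The median log2 ratio of the muscle genes was 0.51 with no minimum, 0.67 with a minimum of 0.1, 0.026 with a minimum of 5 and 0.65 with equal sums. That of the myoblast genes was 0.81 with a pseudocount of 1 FPKM, 1.28 with no minimum and with a minimum of 0.1, 0.85 with a minimum of 5, 1.36 with equal sums, 0.97 after subtraction of the median by level and 1.44 without genes that share a locus. The depth of single values is unknown. No paired analysis was possible because the table holds 1 pooled value per group, and for the same reason no replicate could be left out.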
